A study of Mus musculus with 6 samples.

Results

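The genes described here encode the enzymes of fatty acid oxidation and ketone body formation in mouse hepatocytes, with a few genes that fasting regulates. They were chosen by name: 30 symbols were looked up among the 32061 genes of the count table, each was found once, and all 30 had enough counts to be tested. Hepatocytes do most of the liver's metabolic work, and here they were freed with collagenase from livers of mice 10 to 12 weeks old and purified on a density gradient, giving 3 libraries in each of 2 groups. The senescent group carried the AhCre transgene and Mdm2 fl/fl, a conditional allele of Mdm2 on both chromosomes. The healthy group was AhCre-, and the sources used here do not state its Mdm2 genotype. In AhCre, ligands of the aryl hydrocarbon receptor switch on the promoter that drives Cre. Mice of both groups received such a ligand, β-naphthoflavone, in corn oil by intraperitoneal injection at 20 mg/kg for 48 hours. Mdm2 encodes the ubiquitin ligase that holds the transcription factor p53 down. The presence of Cre and the loss of Mdm2 cannot be told apart in this design. The labels do not say whether each library is a separate mouse, so the p-values measure the spread between these libraries.

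Fatty acids that enter a hepatocyte are first joined to coenzyme A by acyl-CoA synthetases and are then carried into mitochondria on carnitine. There each turn of beta-oxidation runs through a dehydrogenase, a hydratase, a hydroxyacyl-CoA dehydrogenase and a thiolase, and shortens the chain by an acetyl group. Electrons from the dehydrogenase step pass through the electron transfer flavoprotein to the respiratory chain. Very long chains begin their breakdown in peroxisomes with a separate set of enzymes. In the fasted liver much of the acetyl-CoA is turned into ketone bodies for other organs, and the nuclear receptor PPAR-alpha, which fatty acids activate, raises the transcription of many of these genes.

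Total counts per library ran from 28799392 to 33267299. Levels are in CPM, counts scaled to a library of 1000000 with TMM factors. Each log2 fold change gives the senescent over the healthy level, ± SE, and its p comes from edgeR's quasi-likelihood test with Benjamini-Hochberg adjustment over all genes; fell and rose mean an adjusted p under 0.05. Mdm2 had 19.0, 22.7 and 22.0 CPM in the healthy libraries and 465, 463 and 501 CPM in the senescent ones, and Cdkn1a, the p53 target that encodes p21, had 21.3, 31.1 and 54.3 CPM in the healthy libraries and 654, 773 and 724 CPM in the senescent ones. Counts of the whole Mdm2 gene do not show which exons were lost, so they do not check the deletion. Hepatocyte markers were abundant in every library, with Alb, the gene of serum albumin, at 90320 ± 9846 CPM in the healthy group and 51520 ± 3860 CPM in the senescent one, but 7 of 13 fell and 0 rose, and their sums were 162600 to 178500 and 98720 to 115500 CPM. Of 18 macrophage markers tested 7 rose and 0 fell, and their summed level ran from 114 to 294 CPM in the healthy group and 278 to 540.5 CPM in the senescent one, which overlap. Of 15 stellate cell and fibroblast markers 10 rose and 0 fell, with sums of 17.5 to 28.7 and 47.0 to 67.0 CPM, and of 14 endothelial markers 2 rose and 2 fell, with sums of 293 to 351 and 279 to 339 CPM. Of 7 cholangiocyte markers 3 rose and 1 fell (21.4 to 37.3 and 34.0 to 47.6 CPM), and lymphocyte markers summed to 1.73 to 4.88 and 4.46 to 8.77 CPM. Among all genes tested 20.7% fell and 20.4% rose. Acta2, the smooth muscle actin gene of activated stellate cells, was at or near 0 in every library, with 0.0558 CPM as its highest value. It was too low to be tested and is not among the 15 stellate cell and fibroblast markers above, of which 10 rose. The part of these other cells, and of the fall of hepatocyte markers, in the results below was not tested.

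Most of the pathway was lower in senescent hepatocytes. Of the 30 genes 23 fell, 1 rose and 6 did not pass, where 20.7% of all genes tested fell and 20.4% rose (41.1% in all). The median log2 fold change was -0.86, against 0.01 for all genes tested, and it ran from -2.30 to 1.18. For 25 of the 30 genes every healthy library lay above every senescent one, an order held by 27.2% of all genes tested, and the reverse order held for 1 (26.8% of all genes). Falls to at most 50% (a log2 fold change of -1 or lower) were called for 8 of them, and such falls made up 6.94% of all genes. Summed over the 30 genes, the level was 8591, 8351 and 8525 CPM in healthy replicates 1, 2 and 3 and 5755, 5307 and 4657 CPM in senescent ones, so that 61.7% of the healthy mean was left. The summed hepatocyte markers had 60.7% left. Alb alone made up 90320 of the 172300 CPM of their healthy mean sum, so that share mostly describes Alb. The median log2 fold change of the 13 markers was -0.55, and 6 of them did not pass. In RNA from many cells together, fewer cells of a type and less RNA per cell cannot be told apart. TMM factors were 0.893 to 0.909 in the healthy and 1.07 to 1.15 in the senescent libraries, so the shares left depend on this scaling. Without it the 30 genes held 0.767, 0.745 and 0.775% of all counts in the healthy libraries and 0.647, 0.565 and 0.536% in the senescent ones, a smaller difference. Scaling to total library size left 18 falls among the 30 genes, with 1285 of all 12949 genes falling and 4861 rising, and raised the median of all genes to 0.33, with the 30 genes at -0.55. The distance between the 2 medians was -0.87 there and -0.87 with TMM. A change of scaling moves the log2 fold changes of all genes by nearly the same amount. This distance could therefore hardly differ and does not test the choice of scaling.

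**Figure D1:**
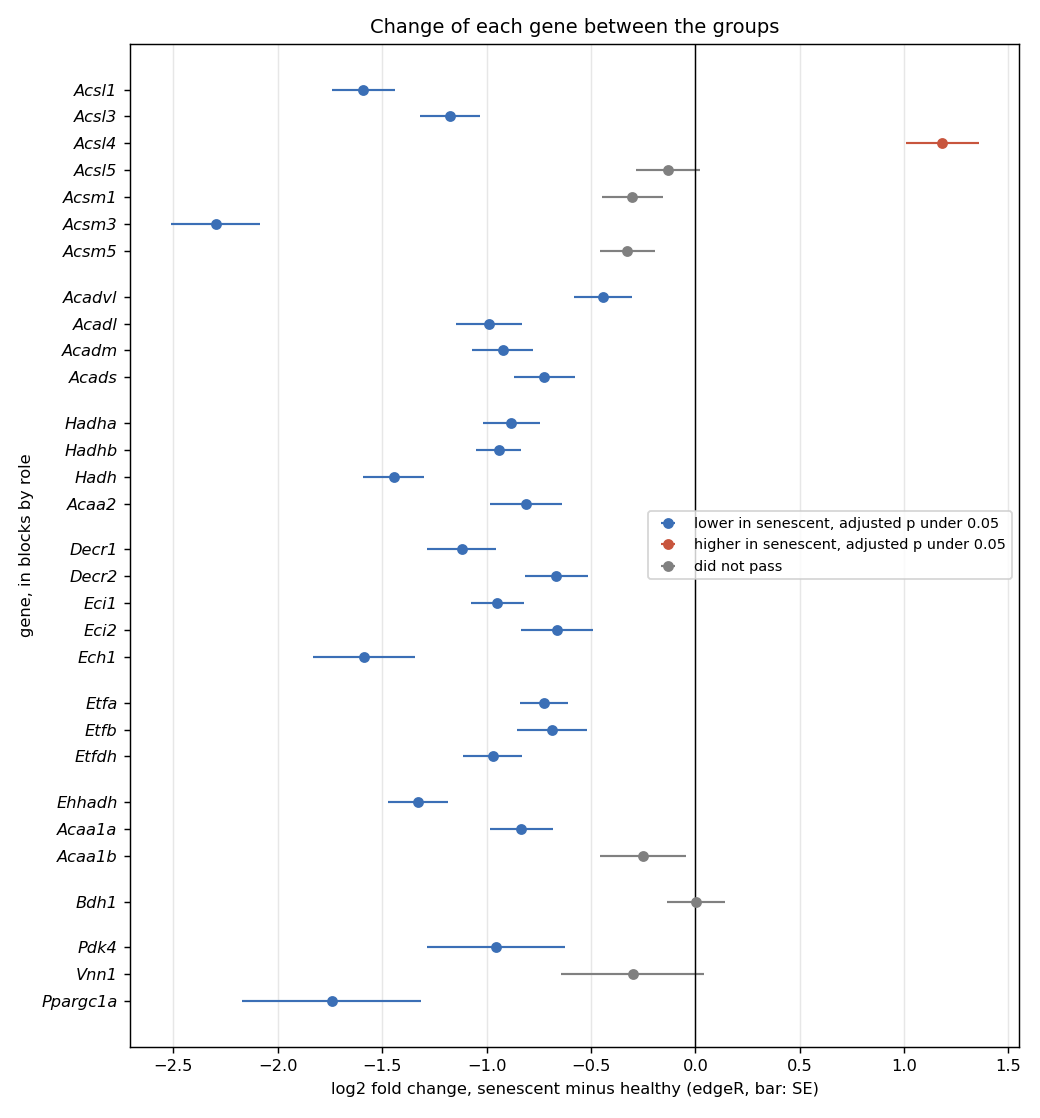
Log2 fold change of each of the 30 genes, senescent minus healthy, with its SE from edgeR (n = 3 libraries per group), in blocks by role. Blue points passed the test downward (23 genes), the red point upward (Acsl4, 1.18 ± 0.18) and grey points did not pass.

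The long-chain acyl-CoA synthetases, which activate fatty acids, went in different directions. Acsl1 (ENSMUSG00000018796; chromosome 8, 46471037 to 46536051), all positions being on GRCm38, encodes the main isoform of liver and fat and had 768, 849 and 943 CPM in the healthy libraries and 319.6, 283 and 248 CPM in the senescent ones. The groups lay far apart, with 33.2% of the healthy mean left and a log2 fold change of -1.59 ± 0.15 (edgeR adjusted p = 0.00012). Acsl3, whose product sits on the endoplasmic reticulum and on lipid droplets, had 49.3, 47.2 and 37.3 CPM in the healthy libraries and 22.2, 17.9 and 19.0 CPM in the senescent ones, and fell by the same test, -1.18 ± 0.14 (edgeR adjusted p = 0.00047). Acsl4 (ENSMUSG00000031278; chromosome X, 142317993 to 142390535) encodes the isoform that prefers arachidonic acid, and through it membranes gain the polyunsaturated lipids on which ferroptosis depends. It had 42.8, 38.5 and 39.0 CPM in the healthy libraries and 67.3, 108 and 98.2 CPM in the senescent ones, so that every senescent library was above every healthy one. Its log2 fold change of 1.18 ± 0.18 (edgeR adjusted p = 0.0012) made it the only one of the 30 genes that rose, and it did so under all 15 other settings tried. Acsl5, a mitochondrial and endoplasmic reticulum isoform that is abundant in liver and gut, had 613, 749 and 577 CPM in the healthy libraries and 521, 598 and 649.7 CPM in the senescent ones. Its groups overlapped and it did not pass, -0.13 ± 0.15 (edgeR adjusted p = 0.52), with 0.18 under total library size.

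Medium-chain synthetases of the Acsm family are mitochondrial enzymes that also activate benzoate and other carboxylic acids for joining to glycine. The 3 described here differed among themselves although their genes lie near each other. Acsm5, Acsm1 and Acsm3 lie in that order on the plus strand of chromosome 7, starting at 119519463, 119607026 and 119760923. Acsm2 lies between Acsm5 and Acsm1, and Acsm4 between Acsm1 and Acsm3. Acsm4 had 0 CPM in every library, and Acsm2 had 1.17 ± 0.442 CPM in the healthy group and 1.19 ± 0.717 CPM in the senescent one. Acsm3 had 62.2, 77.1 and 107 CPM in the healthy libraries and 17.4, 18.7 and 13.9 CPM in the senescent ones, the largest fall of the 30 genes, with 20.3% of the healthy mean left and a log2 fold change of -2.30 ± 0.21 (edgeR adjusted p = 0.00011). Acsm1, by contrast, had 476, 540.3 and 443 CPM in the healthy libraries and 440.3, 406 and 338 CPM in the senescent ones. Its libraries did not overlap, by a narrow margin, but it did not pass, -0.30 ± 0.15 (edgeR adjusted p = 0.13). Acsm5 was similar, with 112, 124 and 126 CPM in the healthy libraries and 105, 80.4 and 103 CPM in the senescent ones and -0.33 ± 0.13 (edgeR adjusted p = 0.082). No stretch of 50 bases in the transcripts of these 3 genes occurs in another gene's transcripts, so reads of that length would not be shared with a paralog. Exons of Eri2, on the opposite strand, cover 39.7% of the exonic bases of Acsm3, and the library kit marked strand, but the sources used here do not state whether the counting used it. Stretches of 75 bases upstream of the annotated starts of Acsm1 (chr7:119617706-119617780, plus strand) and Acsm3 (chr7:119760848-119760922, plus strand) are shown because these nearby genes moved so differently. Both are from RefSeq's annotation on GRCm38.p6, and capitals mark CCAAT on either strand.
Acsm1: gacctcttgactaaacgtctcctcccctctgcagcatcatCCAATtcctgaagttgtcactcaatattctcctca
Acsm3: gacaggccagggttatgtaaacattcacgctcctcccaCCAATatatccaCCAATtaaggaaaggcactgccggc
The stretch of Acsm1 holds 1 CCAAT, ends 31 bases before the RefSeq start, and lies inside the longer GENCODE gene. That of Acsm3 holds 2 and ends at the start.

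**Figure D2:**
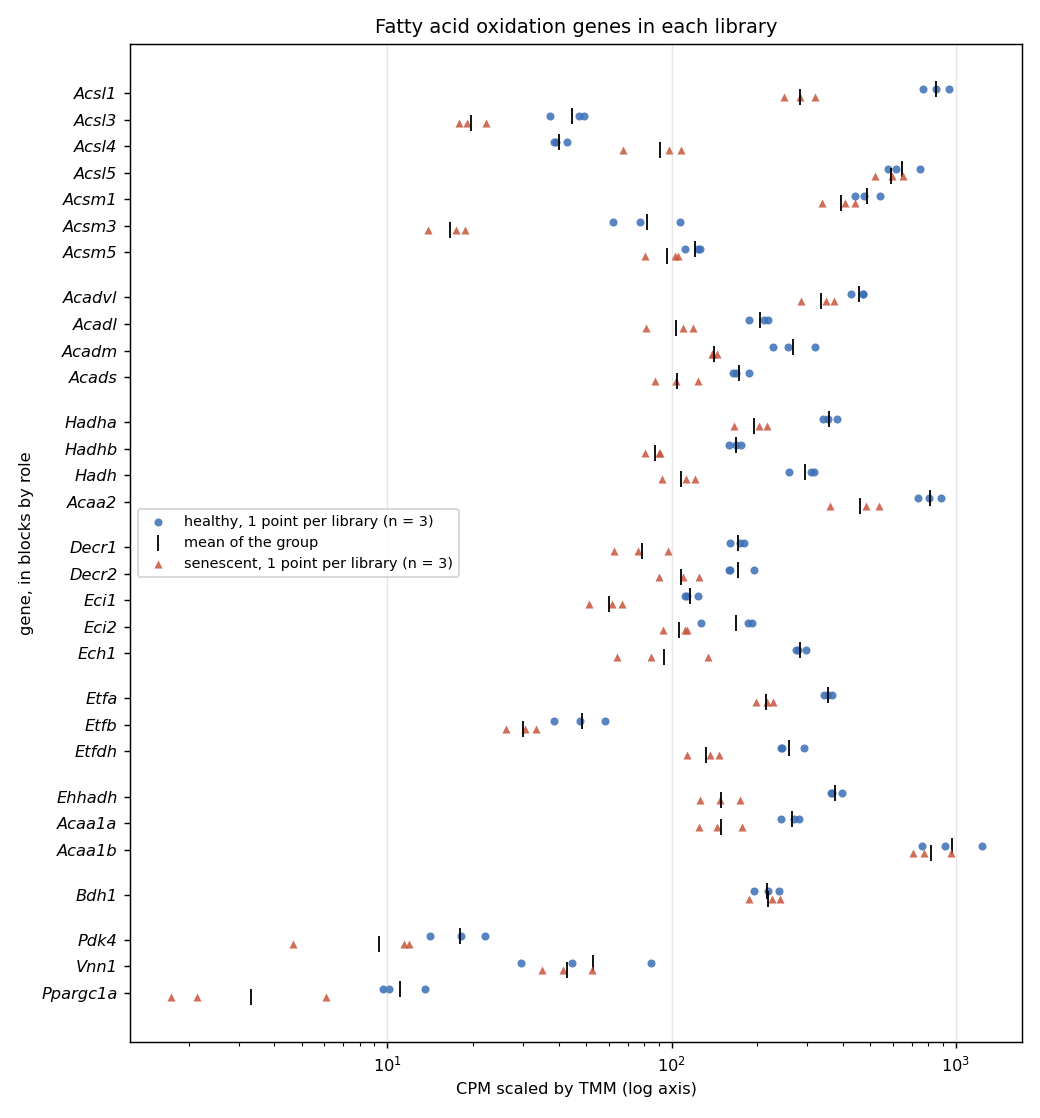
Level of each of the 30 genes in each library, as CPM scaled by TMM on a log axis, with healthy libraries as circles, senescent libraries as triangles and the group mean as a bar (n = 3 each). Acsl4 is the gene whose triangles all lie to the right of its circles, and for Acsl5, Acaa1b, Bdh1 and Vnn1 the symbols overlap.

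All 4 acyl-CoA dehydrogenases, which take the first step of each turn, fell, and they are named by the chain length they prefer. The very-long-chain gene Acadvl fell least, with 472, 472 and 428 CPM in the healthy libraries and 374, 350.1 and 286 CPM in the senescent ones and a log2 fold change of -0.44 ± 0.14 (edgeR adjusted p = 0.034). It lost its call under total library size (edgeR adjusted p = 0.42), on leaving out senescent replicate 2 (0.1) or 3 (0.16), and on leaving out healthy replicate 1 (0.062) or 2 (0.088). Exons of Dvl2 on the opposite strand cover 42.9% of its exonic bases. Acadl, the long-chain gene, had 187, 211 and 218 CPM in the healthy libraries and 119, 109 and 81.5 CPM in the senescent ones, about a halving, at -0.99 ± 0.16 (edgeR adjusted p = 0.0018). Acadm, the gene mutated in medium-chain acyl-CoA dehydrogenase deficiency, had 227, 256 and 319.9 CPM in the healthy libraries and 145, 140.3 and 139 CPM in the senescent ones, and its senescent libraries lay within a few CPM of each other. Its log2 fold change was -0.92 ± 0.15 (edgeR adjusted p = 0.0016), and that of the short-chain gene Acads was -0.72 ± 0.15 (edgeR adjusted p = 0.0053), with means from 173 ± 12.8 to 105 ± 18.1 CPM.

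The mitochondrial trifunctional protein, which carries out the later steps on long chains, is built of the subunits encoded by Hadha and Hadhb. Hadha (ENSMUSG00000025745; chromosome 5, 30118304 to 30155162) had 381, 356 and 340.2 CPM in the healthy libraries and 216, 203 and 166 CPM in the senescent ones, and Hadhb (ENSMUSG00000059447; chromosome 5, 30155248 to 30184593) had 169, 159 and 176 CPM in the healthy libraries and 91.3, 90.3 and 80.7 CPM in the senescent ones. Both were lower in all senescent libraries, at -0.88 ± 0.14 (edgeR adjusted p = 0.0015) and -0.94 ± 0.11 (edgeR adjusted p = 0.00036). The genes point away from each other, Hadha on the minus and Hadhb on the plus strand, with 85 bases between their GENCODE starts. That gap is printed on the plus strand, as chr5:30155163-30155247, because the subunits share it and moved by nearly the same amount.
Hadha and Hadhb gap: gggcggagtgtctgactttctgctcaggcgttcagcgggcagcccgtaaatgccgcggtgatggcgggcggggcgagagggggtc
It holds 0 copies of CCAAT. Of the 50-base stretches in transcripts of Hadhb, 19.7% also occur in another gene's transcripts, 18.1% in Gm13910, so part of its reads cannot be placed with certainty. Hadh, which encodes the dehydrogenase for short and medium chains, fell more than the trifunctional subunits. It had 317, 259 and 308 CPM in the healthy libraries and 121, 112 and 92.1 CPM in the senescent ones, and 36.7% of the healthy mean was left, at -1.45 ± 0.15 (edgeR adjusted p = 0.00017). Acaa2, the mitochondrial thiolase gene, had 888, 802 and 734 CPM in the healthy libraries and 535, 484 and 362 CPM in the senescent ones and a log2 fold change of -0.81 ± 0.17 (edgeR adjusted p = 0.0068).

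Unsaturated fatty acids need isomerases and a reductase besides the core cycle, and all 5 genes of this kind fell. Ech1, which encodes a dienoyl-CoA isomerase, had 273, 298 and 278 CPM in the healthy libraries and 134, 84.9 and 64.0 CPM in the senescent ones. The senescent libraries were spread from 64.0 to 134 CPM but all stayed far below the healthy ones, at -1.59 ± 0.24 (edgeR adjusted p = 0.0015). Decr1, the mitochondrial 2,4-dienoyl-CoA reductase gene, had 173, 161 and 179 CPM in the healthy libraries and 97.4, 76.2 and 62.6 CPM in the senescent ones and a log2 fold change of -1.12 ± 0.17 (edgeR adjusted p = 0.0012). Its peroxisomal counterpart Decr2 had 159.7, 160.2 and 195 CPM in the healthy libraries and 109.9, 125 and 89.9 CPM in the senescent ones and -0.67 ± 0.15 (edgeR adjusted p = 0.009). The isomerase genes Eci1 and Eci2 had log2 fold changes of -0.95 ± 0.13 (edgeR adjusted p = 0.00079) and -0.66 ± 0.17 (edgeR adjusted p = 0.016), with means from 116 ± 6.71 to 60.1 ± 7.97 CPM for the mitochondrial Eci1 and from 168 ± 35.5 to 106 ± 11.4 CPM for Eci2, whose product is also found in peroxisomes. Scaling by total library size ended both the Decr2 and the Eci2 call (edgeR adjusted p = 0.064 and 0.11). Without senescent replicate 3 the edgeR adjusted p was 0.093 for Eci2 and 0.05 for Decr2, both not called, and without healthy replicate 2 it was 0.057 for Eci2.

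Electron transfer flavoprotein, a heterodimer of the products of Etfa and Etfb, takes electrons from the acyl-CoA dehydrogenases, and the oxidoreductase encoded by Etfdh passes them to ubiquinone. Etfa had 366, 342 and 356 CPM in the healthy libraries and 217, 228 and 199 CPM in the senescent ones, at -0.73 ± 0.12 (edgeR adjusted p = 0.0017). Etfb had 58.5, 47.7 and 38.6 CPM in the healthy libraries and 33.3, 30.4 and 26.2 CPM in the senescent ones, at -0.69 ± 0.17 (edgeR adjusted p = 0.012), and Etfdh 243, 244 and 291 CPM in the healthy libraries and 147, 137 and 113 CPM in the senescent ones, at -0.97 ± 0.14 (edgeR adjusted p = 0.0011). All 3 fell, and in none did the groups overlap. Etfb no longer passed under total library size (edgeR adjusted p = 0.087) or without senescent replicate 3 (0.067). Gm45233, a GENCODE transcript on the same strand, covers 53.0% of the exonic bases of Etfb but is not among the counted genes. Whether this overlap changed the count of Etfb was not tested. The 60 bases before the RefSeq starts of Etfa (chr9:55512244-55512303, minus strand) and Etfb (chr7:43444012-43444071, plus strand) are given as those of 2 subunits of a dimer on different chromosomes, with CCAAT on either strand in capitals.
Etfa: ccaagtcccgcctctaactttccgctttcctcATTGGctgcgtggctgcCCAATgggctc
Etfb: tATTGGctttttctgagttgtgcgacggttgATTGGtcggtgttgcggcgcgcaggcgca
Each holds 2 CCAAT within these 60 bases.

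Of the peroxisomal genes, Ehhadh and Acaa1a fell and Acaa1b did not pass. Ehhadh (ENSMUSG00000022853; chromosome 16, 21761287 to 21787807) encodes the bifunctional hydratase and dehydrogenase of peroxisomes and is a textbook PPAR-alpha target. It had 362, 367 and 397 CPM in the healthy libraries and 174, 148 and 126 CPM in the senescent ones, with 39.8% of the healthy mean left and a log2 fold change of -1.33 ± 0.14 (edgeR adjusted p = 0.00026). In the mouse a pair of paralogs encodes the peroxisomal thiolase. Acaa1a (ENSMUSG00000036138; chromosome 9, 119339676 to 119350299) had 281, 243 and 270 CPM in the healthy libraries and 177, 144 and 124 CPM in the senescent ones and fell, at -0.83 ± 0.15 (edgeR adjusted p = 0.0033). Acaa1b (ENSMUSG00000010651; chromosome 9, 119148023 to 119157093), the paralog classically induced by peroxisome proliferators, had 1235, 762 and 913 CPM in the healthy libraries and 965, 775 and 708 CPM in the senescent ones. Its groups overlapped, since senescent replicates 1 and 2 were above the lowest healthy library, and it did not pass, at -0.25 ± 0.21 (edgeR adjusted p = 0.36), with 0.06 under total library size. The paralogs are alike in sequence: 12.9% of 50-base stretches in transcripts of Acaa1a and 30.5% of those of Acaa1b occur in other genes, nearly all in each other, so the split of reads between them is uncertain. Their upstream bases, which differ, are shown for the same pair, Acaa1a as chr9:119341169-119341293 on the plus strand and Acaa1b as chr9:119157094-119157218 on the minus strand, from 125 bases before the RefSeq start up to it, with CCAAT on either strand in capitals.
Acaa1a: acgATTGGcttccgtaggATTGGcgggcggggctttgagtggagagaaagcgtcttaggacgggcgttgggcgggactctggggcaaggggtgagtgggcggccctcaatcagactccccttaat
Acaa1b: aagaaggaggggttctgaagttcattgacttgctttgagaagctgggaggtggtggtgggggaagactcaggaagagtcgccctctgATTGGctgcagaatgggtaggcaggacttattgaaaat
The first, which lies inside the longer GENCODE gene, holds 2 CCAAT, and the second holds 1.

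Of the genes of ketone body formation, Bdh1 did not pass. Bdh1 (ENSMUSG00000046598; chromosome 16, 31422280 to 31458901) encodes the mitochondrial dehydrogenase that turns acetoacetate into 3-hydroxybutyrate, and it had 194, 239 and 218 CPM in the healthy libraries and 239.7, 226 and 187 CPM in the senescent ones. The groups overlapped almost entirely, at 0.00 ± 0.14 (edgeR adjusted p = 0.99). Acat1, the gene of the mitochondrial acetoacetyl-CoA thiolase, went from 403 ± 85.1 to 146 ± 20.4 CPM, at -1.46 ± 0.18 (edgeR adjusted p = 0.00052). Oxct1, which tissues other than liver use to burn ketone bodies, was low, with 1.24 ± 0.565 CPM in the healthy group and 2.21 ± 0.886 CPM in the senescent one (edgeR adjusted p = 0.15).

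Of the genes that respond to fasting, Pdk4 and Ppargc1a fell and Vnn1 did not pass. Pdk4 encodes the kinase that shuts off pyruvate dehydrogenase when fat is burned. It had 14.1, 22.0 and 18.1 CPM in the healthy libraries and 11.9, 4.63 and 11.4 CPM in the senescent ones, so that every senescent library was below every healthy one, at -0.95 ± 0.33 (edgeR adjusted p = 0.047). This call was lost with total library size (edgeR adjusted p = 0.16), a filter at a mean of 1 CPM (0.052), the replicate number as a block (0.062), and on leaving out senescent replicate 2 (0.062) or 3 (0.083) or healthy replicate 2 (0.14) or 3 (0.078). Without senescent replicate 2, the library with the lowest value, its log2 fold change was -0.59. Vnn1, the pantetheinase gene and a sensitive PPAR-alpha target, had 29.5, 44.5 and 84.7 CPM in the healthy libraries and 52.4, 41.5 and 35.1 CPM in the senescent ones. Healthy libraries alone spanned the whole senescent range, and it did not pass, at -0.30 ± 0.34 (edgeR adjusted p = 0.51); without healthy replicate 3 its log2 fold change was 0.21. Ppargc1a (ENSMUSG00000029167; chromosome 5, 51454250 to 51567726) encodes the coactivator PGC-1alpha, which drives mitochondrial genes together with PPAR-alpha and ERR-alpha. It had 10.1, 13.5 and 9.65 CPM in the healthy libraries and 1.73, 6.09 and 2.14 CPM in the senescent ones, the lowest per kb of the 30 genes in both groups, and fell, at -1.74 ± 0.43 (edgeR adjusted p = 0.013). Its log2 fold change was -2.48 without senescent replicate 2, where it was highest among senescent libraries, and the call was lost without senescent replicate 3 (edgeR adjusted p = 0.056).

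Other regulators were mixed. Of 28 regulators of fatty acid oxidation 10 fell and 3 rose, with a median of -0.07, where 20.7% of all genes tested fell and 20.4% rose. Ppara itself had 48.6, 73.3 and 110 CPM in the healthy libraries and 61.1, 50.3 and 40.8 CPM in the senescent ones and did not pass, at -0.61 ± 0.28 (edgeR adjusted p = 0.11), but without healthy replicate 1, its lowest healthy library, it did (-0.86, edgeR adjusted p = 0.019). Ppargc1b, the close relative of Ppargc1a, went from 2.71 ± 0.626 to 0.544 ± 0.115 CPM, at -2.31 ± 0.30 (edgeR adjusted p = 0.0007). Acacb, whose product makes the malonyl-CoA that inhibits carnitine palmitoyltransferase, went from 335 ± 77.1 to 61.5 ± 13.6 CPM, at -2.44 ± 0.23 (edgeR adjusted p = 0.00011), and Klb, the FGF21 co-receptor gene, from 34.3 ± 6.24 to 10.0 ± 1.69 CPM, at -1.78 ± 0.18 (edgeR adjusted p = 0.00016). The 3 that rose were Esrra, the gene of ERR-alpha, from 23.9 ± 10.5 to 70.5 ± 2.08 CPM, at 1.56 ± 0.27 (edgeR adjusted p = 0.0026), the AMP kinase subunit gene Prkaa2, from 44.0 ± 1.16 to 77.9 ± 8.28 CPM, and Foxo3, from 39.7 ± 8.23 to 62.8 ± 6.24 CPM (edgeR adjusted p = 0.00092 and 0.014 for the last pair). Around pyruvate dehydrogenase, 7 of 12 genes fell and 1 rose, beside the same shares of all genes. Among its kinases Pdk2 went from 114 ± 10.4 to 23.9 ± 3.96 CPM, at -2.25 ± 0.15 (edgeR adjusted p = 2.0e-05), and Pdk1 from 119.5 ± 5.42 to 34.8 ± 7.70 CPM, at -1.78 ± 0.17 (edgeR adjusted p = 0.00011). The phosphatase genes that oppose them went in different directions, Pdp2 from 38.0 ± 5.81 to 12.2 ± 2.55 CPM and Pdp1, from a low level, from 0.895 ± 0.214 to 2.14 ± 0.496 CPM (edgeR adjusted p = 0.00028 and 0.011).

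Whether partners changed by the same amount was asked with the log2 ratio of their counts within each library, which needs no scaling between libraries. In all, 11 pairs were compared with an exact two-sided permutation test, in which 3 against 3 libraries cannot go below p = 0.1, so no pair could pass. The ratio of Hadha to Hadhb differed by 0.05 ± 0.09 (difference senescent minus healthy ± SE; exact permutation p = 0.6) and that of Etfa to Etfb by -0.06 ± 0.18 (exact permutation p = 0.9), both with overlapping groups. The ratio of Acadm to Acads overlapped too, at -0.17 ± 0.24 (exact permutation p = 0.6). In the other 8 pairs the groups did not overlap, and each reached the smallest exact permutation p of 0.1 (0.138 adjusted over the 11 pairs). For Acsl1 to Acsl4 and Acsl3 to Acsl4 this was fixed in advance, since these genes separated the groups in opposite directions. The pairs were chosen with earlier results known, and how often other pairs of genes separate was not measured. The ratios therefore describe the gene results above and add no separate test. The synthetases stood farthest apart: Acsl1 to Acsl4 had log2 ratios of 4.17, 4.46 and 4.59 in healthy and 2.25, 1.40 and 1.33 in senescent libraries, a difference of -2.75 ± 0.32. Acsl3 to Acsl4 differed by -2.33 ± 0.32 and Acsl1 to Acsl5 by -1.46 ± 0.25. Acsm1 to Acsm3 went the other way, from 2.94, 2.81 and 2.05 to 4.66, 4.44 and 4.60, a difference of 1.97 ± 0.28. Acaa1a to Acaa1b differed by -0.61 ± 0.15 and Acadl to Acadvl by -0.56 ± 0.12. For the enzymes of unsaturated chains, Decr1 to Decr2 differed by -0.47 ± 0.17 and Eci1 to Eci2 by -0.31 ± 0.17.

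**Figure D3:**
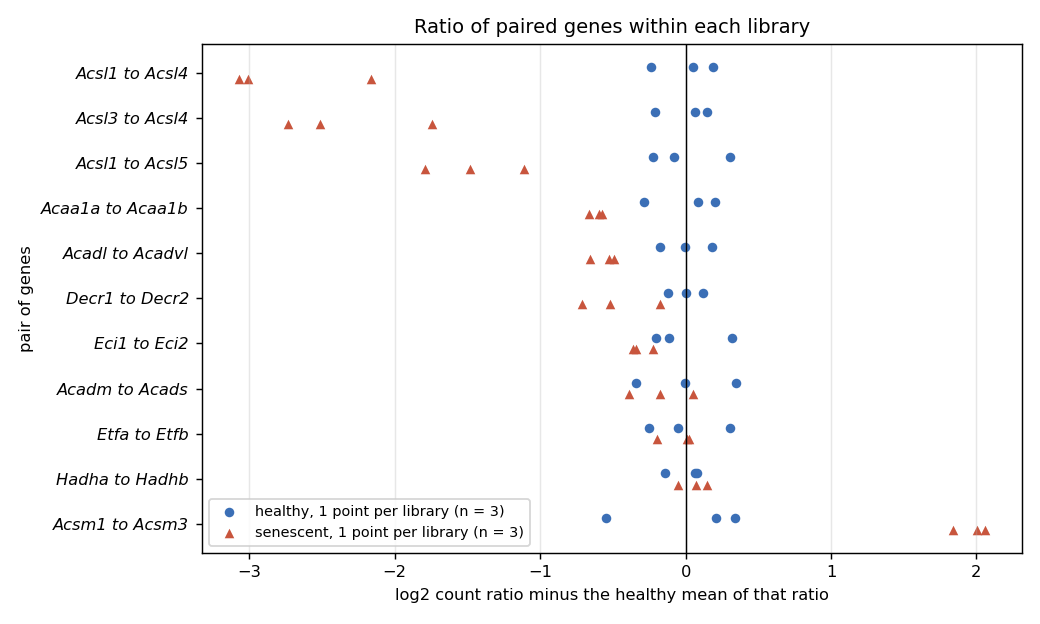
Log2 ratio of the counts of 2 genes within each library, minus the healthy mean of that ratio, for the 11 pairs (circles healthy, triangles senescent, 1 symbol per library). Acsl1 to Acsl4 shifted by -2.75 and Acsm1 to Acsm3 by 1.97, while the symbols of Hadha to Hadhb, Etfa to Etfb and Acadm to Acads overlap.

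Levels of different genes were compared as CPM per kb of exonic length, with lengths from GENCODE. These lengths join the exons of all annotated transcripts of a gene, so they can exceed the length of a single mRNA and lower the value. In healthy libraries the thiolase genes led, Acaa2 at 533 ± 50.9 and Acaa1b at 494 ± 123 CPM per kb (mean ± SD, n = 3), which did not differ beyond their spread. Acsm1 at 223 ± 22.7 and Etfa at 193 ± 6.44 CPM per kb came next, followed by Acadvl at 170.2 ± 9.48, and Acsl5 (133 ± 18.6), Ehhadh (126 ± 6.30) and Ech1 (124 ± 5.70) lay within each other's spread. In senescent libraries Acaa1b stood at 416 ± 67.8 CPM per kb and Acaa2 at 304 ± 58.7. Ehhadh, at 50.1 ± 8.02 CPM per kb, was there level with Bdh1, at 55.9 ± 7.07, although in healthy libraries Bdh1 had 55.8 ± 5.69. Of the long-chain synthetases, per kb, Acsl5 was above Acsl1 in both groups, with Acsl1 at 81.4 ± 8.39 in healthy and 27.0 ± 3.42 in senescent libraries. In healthy libraries this order came from the lengths, 10483 bases for Acsl1 and 4864 for Acsl5. In CPM, Acsl1 was the higher there, at 853 ± 87.9 against 646 ± 90.5. Which transcript was the more abundant in healthy libraries is thus not settled. Acsl4 went from 7.42 ± 0.427 to 16.9 ± 3.90 CPM per kb, which put it above Acsl3, at 10.2 ± 1.47 and then 4.52 ± 0.513.

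Within the senescent group the libraries differed in a common direction. Senescent replicate 1 was the highest of its group for 23 of the 30 genes and replicate 3 the lowest for 24. Replicate 1 was above replicate 3 for 27 of 30 genes, against 47.1% of all genes tested, for 43 of 49 other genes listed with the pathway and for 14 of 18 genes of the tricarboxylic acid cycle. The exceptions were Acsl4, Acsl5 and Ppargc1a. The order was weaker among healthy libraries, where replicates 1, 2 and 3 were the highest for 11, 6 and 13 genes and the lowest for 14, 7 and 9. The summed macrophage markers were 423, 278 and 540.5 CPM and the summed hepatocyte markers 98720, 115500 and 99240 CPM in senescent replicates 1, 2 and 3, and their part in the order was not tested. Without senescent replicate 3, 17 of the 30 genes fell and the median was -0.71. The falls among all genes tested went from 2680 to 1489 in that fit. The coefficient of variation was larger in senescent than in healthy libraries for 22 genes, with medians of 0.139 and 0.102. For all genes tested with a mean of at least 10 CPM the medians were 0.0867 and 0.124, the other way round.

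**Figure D4:**
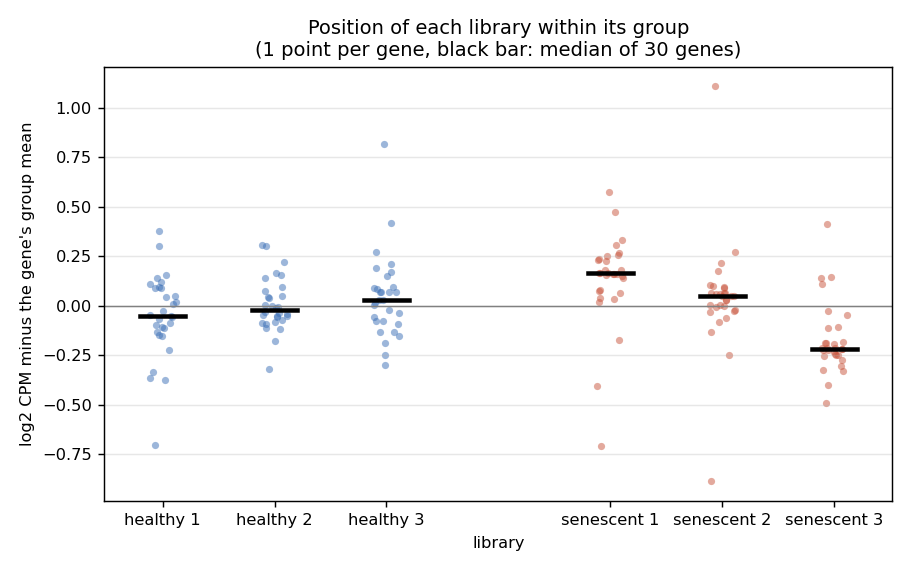
Each point is the log2 CPM of 1 of the 30 genes in 1 library minus that gene's mean over the 3 libraries of the group, and black bars are medians over the 30 genes. The medians are 0.16, 0.05 and -0.22 for senescent libraries 1, 2 and 3, against -0.05, -0.02 and 0.03 for the healthy ones.

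Genes listed with this pathway outside the 30 mostly fell too, where 20.7% of all genes tested fell and 20.4% rose. Of 54 listed, 53 were found and 49 tested, of which 37 fell and 3 rose, with a median of -0.67. With total library size 24 fell. The list also holds genes of amino acid and propionyl-CoA breakdown, and Ivd, Gcdh, Acadsb, Pcca and Pccb are among its falls. Crat, the carnitine acetyltransferase gene, went from 61.9 ± 8.46 to 10.2 ± 2.58 CPM, at -2.60 ± 0.20 (edgeR adjusted p = 3.7e-05). Mlycd, whose product breaks down malonyl-CoA, went from 97.9 ± 3.98 to 38.2 ± 3.48 CPM, and Acss2, which makes acetyl-CoA from acetate, from 703 ± 188 to 136 ± 28.6 CPM. Cpt1a, the rate-limiting carnitine palmitoyltransferase of liver, had 229, 246 and 372 CPM in the healthy libraries and 183, 253 and 151 CPM in the senescent ones; its groups overlapped and it did not pass, at -0.53 ± 0.24 (edgeR adjusted p = 0.11). The rises were those of Acad8 and Mcee, which serve the breakdown of valine and of propionyl-CoA, at 0.54 ± 0.10 and 0.44 ± 0.12 (edgeR adjusted p = 0.0043 and 0.022), and of Cpt1c, a carnitine palmitoyltransferase gene best known from the brain. Cpt1c had 0.0674, 0.0389 and 0 CPM in the healthy libraries and 69.3, 81.0 and 93.0 CPM in the senescent ones, so that it was all but undetected in healthy libraries (edgeR adjusted p = 4.0e-07). The call of Mcee was lost on leaving out senescent replicate 2 (edgeR adjusted p = 0.065) or healthy replicate 2 (0.07) or 3 (0.052).

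Of 34 tested genes listed as PPAR-alpha targets outside the 30, several of which are also in the pathway list, 19 fell and 4 rose, with a median of -0.88. The shares of all genes tested were 20.7% and 20.4%. Among the falls, those with the smallest p were Plin5, a lipid droplet protein gene, from 63.6 ± 9.48 to 18.8 ± 1.49 CPM, the monoglyceride lipase gene Mgll, from 172 ± 22.4 to 27.9 ± 9.70 CPM, and Fabp1, the liver fatty acid binding protein gene, from 2941 ± 546 to 409.5 ± 191 CPM (edgeR adjusted p = 5.2e-05, 0.00012 and 0.00034). The rises included Cpt1c, Cyp4a12a from a low level, from 0.269 ± 0.207 to 1.29 ± 0.246 CPM, and Aldh3a2, from 275 ± 37.9 to 417 ± 61.2 CPM, and 2 rises were called on leaving out senescent replicate 1, as on leaving out senescent replicate 3. Cpt1c is in the list although it is not known as a target of this receptor. The tricarboxylic acid cycle, another mitochondrial pathway, had 12 falls and 0 rises among 18 genes, beside the same shares of all genes. Its median was -0.61, with 7 falls under total library size. Idh2 went from 130.2 ± 14.8 to 53.4 ± 5.31 CPM, Suclg1 from 183 ± 27.3 to 86.0 ± 10.2 CPM and Sdhc from 186 ± 17.8 to 107 ± 7.35 CPM. Whether the 30 genes differ from these lists was not tested.

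**Figure D5:**
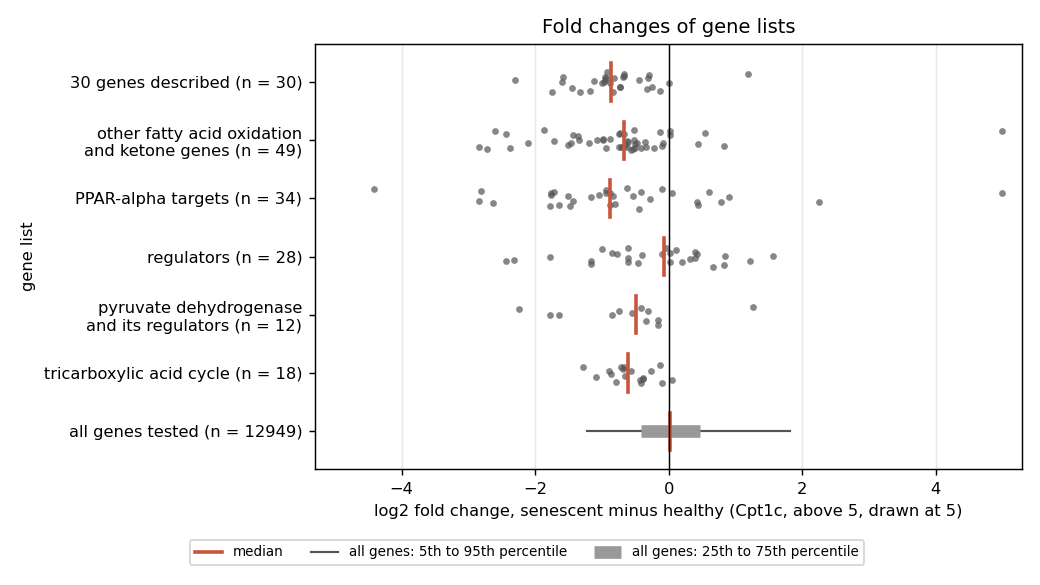
Log2 fold change of each tested gene of 6 lists (points) with the median of the list (bar), and the spread of all 12949 genes tested at the bottom (box, 25th to 75th percentile, and line, 5th to 95th); Cpt1c is drawn at the edge of the axis. The median of the 30 genes is -0.86, that of the tricarboxylic acid cycle -0.61 and that of the regulators -0.07.

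Promoter windows from RefSeq on GRCm38.p6, 250 bases before to 50 bases after each start, were at hand for 27 of the 30 genes, as 29 windows. The direct repeat AGGNCANAGGNCA, a spelling of the element that PPAR-alpha binds, was searched on both strands and was in 0 of these windows and in 0.381% of 32851 windows of all genes. TCAAGGTCA, a spelling of the ERR element, was in 0 of them and in 0.423% of all windows. These letters being absent from so short a window says nothing of the factors. CCAAT, the box that NF-Y binds, was in 15 of the 29 windows and in 37.4% of all. The NRF1 spelling GCGCATGCG was in 2, those of Acadm and Etfdh, and in 1.75% of all windows, and CACGTG in 1, that of Acsm5, and in 7.15% of all.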

How the data were processed

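Polyadenylated RNA of 6 hepatocyte samples was sequenced, grouped by their titles. The authors deposited 1 table of unnormalised read counts per gene. Cutadapt 1.16, the aligner STAR 2.7.1a, featureCounts, DESeq2 1.34.0 and GRCm38 are named, per the submitters' processing notes, while annotation release, strand setting and filters were not given in the sources used here. A column whose code differs by 1 letter from that of healthy replicate 2 was assigned to it, and without this library 20 of the 30 genes fell and 1 rose, while 2096 of all genes fell and 2095 rose. All rows name a gene (0 exceptions), and 99.7% of IDs had a symbol.

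Counts were tested with edgeR 4.0.16 (R 4.3.3; quasi-likelihood F test, TMM, filterByExpr with minimum count 10 and total 15, no covariate), with Benjamini-Hochberg adjustment over 12949 genes and a threshold of 0.05. Ratios had 0.5 added to each count. Alternatives were DESeq2 1.42.0, limma-voom (limma 3.58.1), other scalings and filters, the 50 most abundant genes removed, a threshold of 0.01, the replicate number as a block and each library left out. Genes, lists and tests were chosen with earlier results of these data known. Named genes are the 30, the 3 called genes with the smallest p in each direction of each other list, and Cpt1a, Ppara, Mdm2 and Cdkn1a, except some items that are not reported here; Acat1 and Oxct1 were added after their values were seen, as genes of ketone metabolism, and Alb and the other marker genes to describe the samples. On simulated counts for 12812 genes, the same test of senescent against healthy recovered 78.8% of 99 genes set to change 2-fold, with 7 false calls among 12615 unchanged genes. Few genes were changed there, as many upward as downward, while 41.1% of genes were called in the data. The simulation therefore does not test the choice of scaling.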

Additional observations from a re-analysis of the deposited data

How the results depend on the processing

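Of 450 recomputed calls of the 30 genes under 15 alternatives, 425 kept their direction and side of the threshold, or did not pass either time, and 25 were lost, those of Acadvl, Decr2, Eci2, Etfb, Pdk4 and Ppargc1a. Their count of falls was 17 to 23 in every alternative. With total library size the median of the 30 genes was -0.55, 1285 of all genes fell and 4861 rose, 24 other genes listed with the pathway fell, and in the tricarboxylic acid cycle 7 fell and 1 rose. That scaling also turned the sign of Acsl5, Acsm1, Acaa1b and Vnn1, which passed in neither. At an adjusted p under 0.01, 1498 of all genes fell, 1570 rose and 1 gene of the PPAR-alpha target list rose, Cpt1c, which is not known as such a target. With single libraries left out, 1489 to 2789 of all genes fell (fewest without senescent replicate 3) and 2 to 4 PPAR-alpha targets rose. In such fits an arm has 2 libraries. The ratio differences changed sign without 1 library for 3 pairs: Hadha to Hadhb was -0.018 without healthy replicate 3 and ranged from -0.02 to 0.11, Etfa to Etfb was 0.02 without senescent replicate 1 and 0.10 without healthy replicate 3 (-0.18 to 0.10), and Acadm to Acads was 0.0022 without healthy replicate 3 (-0.34 to 0.00). The cause was not tested. The replicate numbers are shared by the groups, and 3 libraries per group cannot settle whether they pair the samples. Correlations of same-numbered deviations were 0.25, -0.20 and 0.02, and those of differently numbered ones ran from -0.39 to 0.39. With the replicate block 22 of the 30 genes fell and 1 rose, the call of Pdk4 being lost, and 2625 of all genes fell and 2576 rose. The lowest mean among the 30 genes was 7.22 CPM.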
